A study of Mus musculus with 10 samples.

Results

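Expression of 9 genes of mast cells and basophils (Prss34, Mcpt8, Cpa3, Cma1, Tpsb2, Fcer1a, Ms4a2, Kit and Gata2) was read array by array in macrophages grown from bone marrow, to see whether the cultures held RNA of other cells. The genes were listed by name, with earlier results of these data known but no threshold on these values. All 9 were present among the 19935 genes that a feature of the array measured under a single symbol. Each was read from 1 feature.

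The cells were bone marrow-derived macrophages (BMDMs) of male Rac2-/- and WT mice of the C57BL strain, and each genotype had 5 arrays, numbered 1 to 5. In Rac2-/- mice the gene of the small GTPase Rac2 is deleted in the germline, so that every marrow cell lacks it from the start of the culture, and the methods describe WT animals as normal littermates on a C57BL/6J background. Marrow cells of both genotypes received 50 ng/ml of MCSF, the growth factor of the macrophage lineage, for 7 days in medium with 20% FBS under 16% oxygen. They were harvested at 8 days, when at least 80% carried Mac1, and their RNA integrity number was 8 to 9. The methods also describe most adherent cells at 7 days as macrophages, by flow cytometry for Mac1 together with the macrophage marker F4/80. Mac1 is also carried by neutrophils and other myeloid cells, and no sort that would remove mast cells or basophils is named for these cultures. The series is described as 5 mice of each genotype, but no label ties an array to a mouse. The p-values thus rest on how much the arrays differed, which may in part be technical.

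Mast cells and basophils arise from progenitors of the bone marrow and store histamine and proteases in their granules. Both carry the high-affinity IgE receptor, and crosslinking of IgE on it releases the granules. Kit, the receptor of stem cell factor, is needed for the survival of mast cells and is also present on blood progenitors, and the transcription factor Gata2 acts in progenitors, mast cells and basophils. Macrophages are not known for granule proteases of this kind, although they share the gamma chain and much of the signalling chain of the IgE receptor with them.

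Values are log2 expression values made with RMA, a method that corrects the background, normalizes arrays to each other and summarizes the probes of a feature. Differences are Rac2-/- minus WT, tested in limma with Benjamini-Hochberg adjustment over 27181 features whose fourth-highest value reached 4.7, at a threshold of 0.05. Of these, 514 (1.89%) passed, 215 (0.791%) higher and 299 (1.1%) lower in Rac2-/- BMDMs. In both genotypes, arrays 1 and 2 stood apart from arrays 3 to 5, with correlations of 0.974 to 0.996 within these array sets and 0.934 to 0.955 between them. Differences within arrays 1 and 2 and within arrays 3 to 5 are therefore given beside the main values. Rac2 averaged 7.10 ± 0.29 in Rac2-/- and 12.10 ± 0.27 in WT BMDMs (SD, n = 5 each), and no array stood against its label. The 11 macrophage markers averaged 11.99 to 12.22 on the Rac2-/- arrays and 12.01 to 12.19 on the WT arrays, so the label of the cells as macrophages held on every array.

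Prss34, Mcpt8 and Cpa3, which encode granule proteases, had differences of -0.84 to -1.18 on the log2 scale, and varied most between arrays of 1 genotype. The other 6 genes differed by about 0.30 or less. None of the 9 passed the test. Among the 6 genes that passed the filter, 0 were called, beside 1.89% of all tested features. An unadjusted p under 0.05 was found for 4 of these 6 genes, 1 of them (Cpa3) in the test through its WT arrays alone, and for 10.3% of tested features. With all 34760 features tested 0 of 9 were called, beside 1.28% of features, and 5 of 9 had an unadjusted p under 0.05, as had 8.73% of features. In no gene did the arrays of the genotypes separate fully, which happened in 3.64% of all features. The mean was lower in Rac2-/- BMDMs for 8 of the 9 genes (88.9%), as it was for 49.1% of all features, and the median difference was -0.27, against 0.0029 over all features. The 9 genes were chosen with earlier results of these data known, and they are not independent (median r of their pairs 0.70). The shares of lower means and of unadjusted p-values thus describe these genes and do not test them as a group. In RNA of a whole culture, fewer cells of a type and less RNA per cell cannot be told apart.

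**Figure D1:**
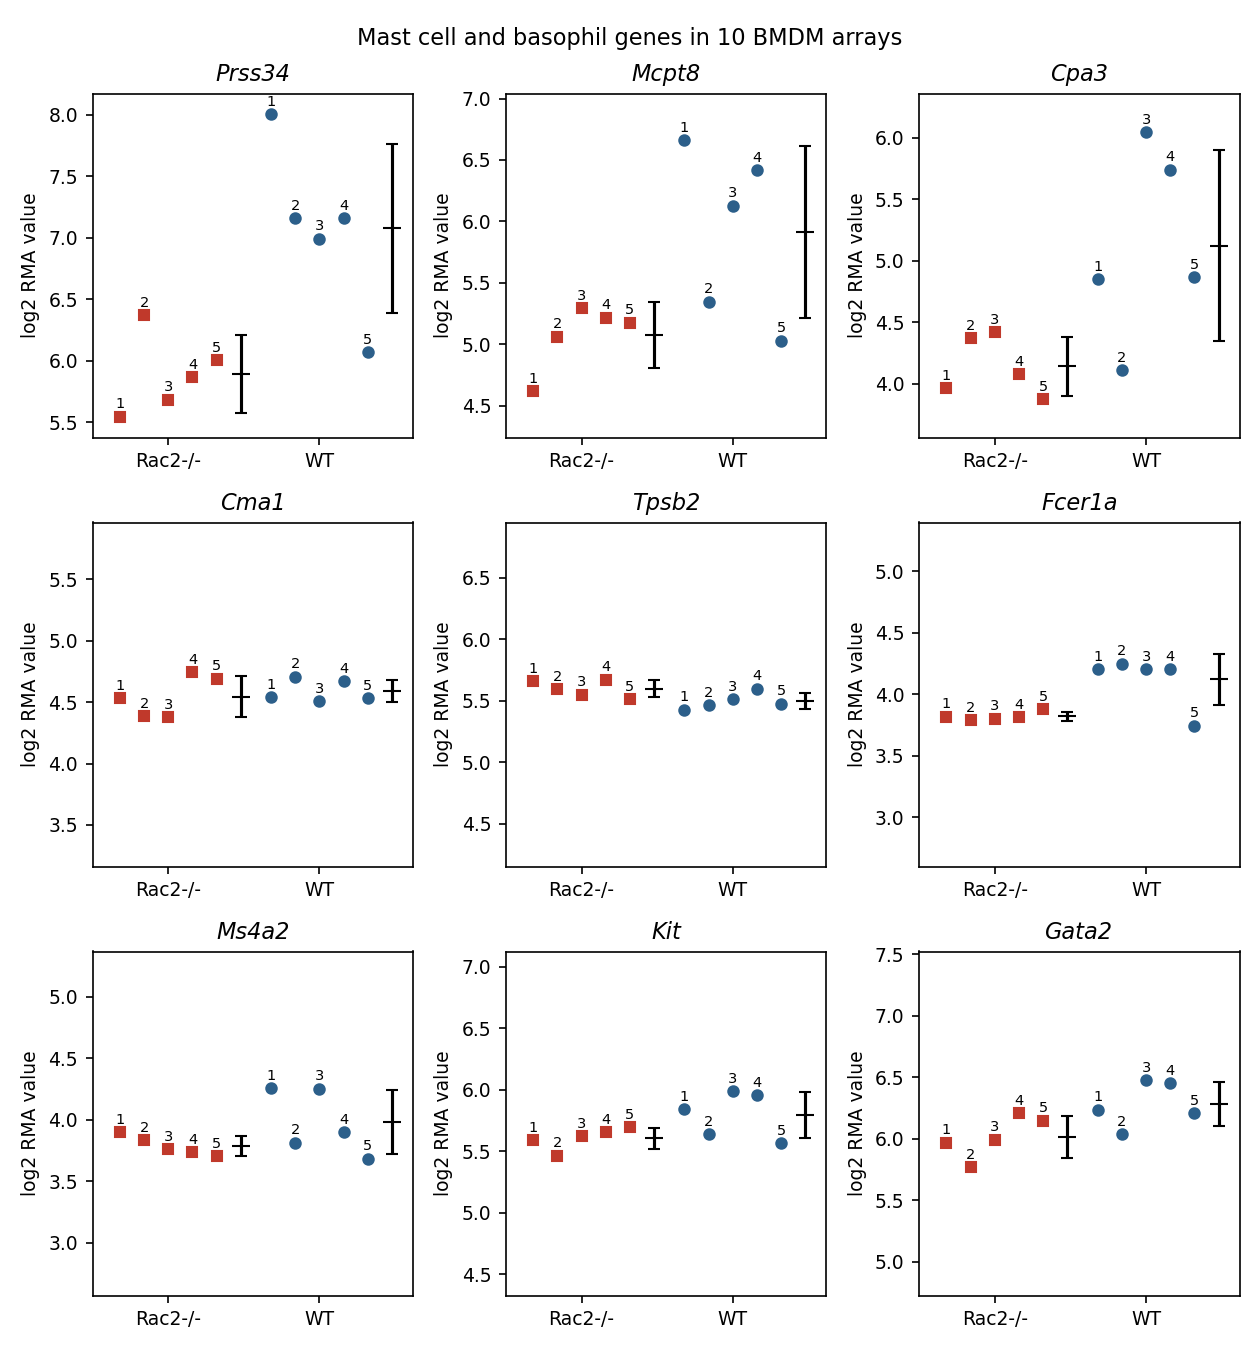
Log2 RMA values of the 9 genes on each array, with Rac2-/- as red squares and WT as blue circles, array numbers above the points, and mean ± SD (n = 5) beside each group. Every panel spans the same log2 distance. Prss34, Mcpt8 and Cpa3 spread over 2.04 to 2.46 between the highest and the lowest array, and Tpsb2 over 0.24.

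Of the proteases, Prss34 and Mcpt8 are known from mouse basophils, and Cpa3, a carboxypeptidase, from mast cells and basophils. The windows around the start sites of these 3 genes are shown because GATA factors, of which Gata2 is measured below, bind the letters GATA. They run from 250 bases before to 50 bases after the start, from RefSeq on build GRCm38.p6, with 4 GATA words in capitals. The word AGATAA, the word AGATAG, the word TGATAA and the word TGATAG were searched on both strands, and since all hold the letters GATA, matches can overlap. The window of Prss34 lies at chr17:25298144-25298443 (plus strand), Mcpt8 at chr14:56085148-56085447 (minus strand) and Cpa3 at chr3:20242132-20242431 (minus strand).
Prss34: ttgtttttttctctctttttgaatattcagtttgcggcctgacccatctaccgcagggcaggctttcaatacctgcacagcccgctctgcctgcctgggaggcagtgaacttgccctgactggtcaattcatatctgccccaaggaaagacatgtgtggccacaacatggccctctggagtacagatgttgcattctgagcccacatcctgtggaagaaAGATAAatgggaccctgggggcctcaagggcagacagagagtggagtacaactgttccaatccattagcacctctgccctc
Mcpt8: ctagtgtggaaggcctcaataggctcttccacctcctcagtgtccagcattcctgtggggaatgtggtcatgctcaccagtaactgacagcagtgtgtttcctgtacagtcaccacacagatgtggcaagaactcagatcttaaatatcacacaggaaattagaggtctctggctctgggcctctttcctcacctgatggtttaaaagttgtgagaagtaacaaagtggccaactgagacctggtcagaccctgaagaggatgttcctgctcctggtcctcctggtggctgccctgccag
Cpa3: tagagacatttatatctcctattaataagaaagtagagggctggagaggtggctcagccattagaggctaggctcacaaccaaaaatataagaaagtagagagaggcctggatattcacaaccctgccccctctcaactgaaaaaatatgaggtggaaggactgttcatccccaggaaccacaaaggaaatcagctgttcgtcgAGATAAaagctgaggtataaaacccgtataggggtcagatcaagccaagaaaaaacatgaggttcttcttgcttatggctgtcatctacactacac
AGATAA began 31 bases before the start of Prss34 and 46 bases before that of Cpa3, and none of the 4 words was in the window of Mcpt8. A window was found for 8 of the 9 genes, and 5 of these held at least 1 of the words. Ms4a2 had 3, Fcer1a and Cma1 had 1 each, and the windows of Kit and Gata2 had none. Of 32851 windows of this length, 29.8% held a word and 1.76% held 3 or more, so that a match describes the letters alone.

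Prss34 read 5.54, 6.37, 5.68, 5.87 and 6.005 on Rac2-/- arrays 1 to 5, against 8.00, 7.16, 6.99, 7.16 and 6.07 on WT arrays 1 to 5. WT arrays 1 to 4 lay above all Rac2-/- arrays, and WT array 5 lay among them. The means were 5.89 ± 0.32 in Rac2-/- and 7.08 ± 0.69 in WT BMDMs, so that Rac2-/- BMDMs had 44.1% of the WT level on the linear scale. The difference was -1.18 (SE 0.31, 95% interval -1.86 to -0.50, adjusted p = 0.101 in limma), with -1.62 in arrays 1 and 2 and -0.89 in arrays 3 to 5. Without WT array 5 it was -1.43 and passed (adjusted p = 0.0259), and without WT array 1 it was -0.95 (adjusted p = 0.139). With a term for the array sets, under which 9.26% of all tested features passed, Prss34 passed too (adjusted p = 0.0246).

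Mcpt8 had the same arrays at the extremes. Its values were 4.62, 5.06, 5.30, 5.22 and 5.18 on the Rac2-/- arrays, against 6.66, 5.35, 6.13, 6.42 and 5.03 on the WT arrays. As for Prss34, the highest value was that of WT array 1, the lowest that of Rac2-/- array 1, and WT array 5 was the lowest of its genotype. Rac2-/- BMDMs averaged 5.08 ± 0.27 and WT BMDMs 5.92 ± 0.70, a difference of -0.84 (SE 0.30, 95% interval -1.51 to -0.17, adjusted p = 0.288 in limma). It was -1.16 in arrays 1 and 2 and -0.63 in arrays 3 to 5.

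Cpa3 followed another order of arrays. Its values were 3.96, 4.37, 4.42, 4.08 and 3.87 on the Rac2-/- arrays, against 4.85, 4.11, 6.05, 5.74 and 4.87 on the WT arrays. WT arrays 3 and 4 were the highest, WT array 2 lay among the Rac2-/- arrays, and the other WT arrays lay above all of them. Rac2-/- BMDMs averaged 4.14 ± 0.24, below the filter, and WT BMDMs averaged 5.12 ± 0.78, so that the gene entered the test through its WT arrays alone. The difference was -0.98 (SE 0.33, 95% interval -1.71 to -0.26, adjusted p = 0.237 in limma), with -0.31 in arrays 1 and 2 and -1.43 in arrays 3 to 5.

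Cma1 and Tpsb2, the chymase and tryptase of mast cells in connective tissue, showed no such pattern. Cma1 was below the filter, at 4.53, 4.38, 4.38, 4.74 and 4.69 on the Rac2-/- arrays and 4.54, 4.71, 4.51, 4.67 and 4.53 on the WT arrays. All WT values lay within the range of the Rac2-/- values. The difference was -0.05 (SE 0.09, 95% interval -0.26 to 0.16, adjusted p = 0.999 in limma over all features). Tpsb2 read 5.66, 5.60, 5.55, 5.67 and 5.51 on the Rac2-/- arrays and 5.43, 5.46, 5.51, 5.60 and 5.48 on the WT arrays, and its difference was 0.10 (SE 0.07, 95% interval -0.05 to 0.25, adjusted p = 0.791 in limma). It was the only one of the 9 with a higher mean in Rac2-/- BMDMs, and the groups overlapped. Tpsb2 and its neighbour Tpsab1 are close copies, and whether its probes read both was not tested.

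**Figure D2:**
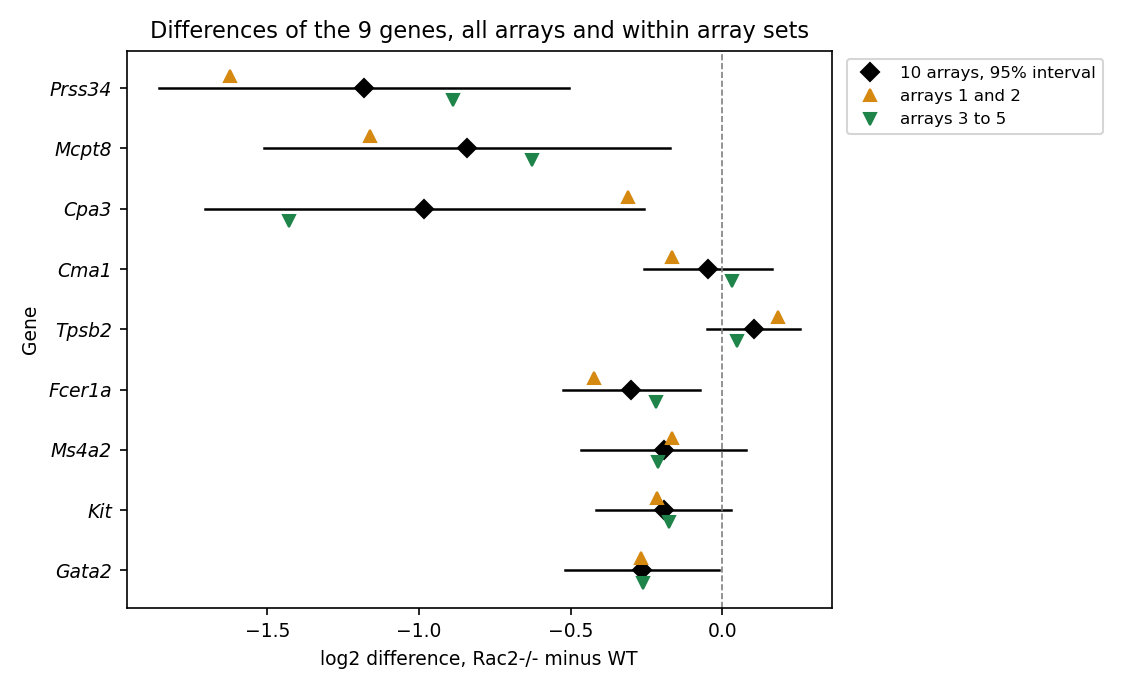
Log2 difference, Rac2-/- minus WT, for each gene over the 10 arrays (black diamonds, line: 95% interval from limma over all features) and within arrays 1 and 2 (orange) and arrays 3 to 5 (green). For genes that passed the filter, the intervals in the text come from the filtered features and differ slightly. For Prss34, Mcpt8 and Cpa3 the differences in both array sets were below 0, and for Cma1 they lay on either side of it.

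Fcer1a and Ms4a2 encode the alpha chain, which binds IgE, and the beta chain of the high-affinity IgE receptor, and both were below the filter. Fcer1a read 3.81, 3.79, 3.80, 3.81 and 3.87 on the Rac2-/- arrays, against 4.20, 4.25, 4.20, 4.20 and 3.74 on the WT arrays. WT arrays 1 to 4 stood together above all Rac2-/- arrays, and WT array 5 was the lowest of all 10. The difference was -0.30 (SE 0.10, 95% interval -0.53 to -0.07, adjusted p = 0.304 in limma over all features), and -0.39 without WT array 5 (adjusted p = 0.0406). Ms4a2 read 3.90, 3.83, 3.76, 3.74 and 3.70 on the Rac2-/- arrays, against 4.25, 3.81, 4.25, 3.90 and 3.68 on the WT arrays. Here only WT arrays 1 and 3 stood clear of the Rac2-/- values, and WT array 5 was again the lowest. The difference was -0.19 (SE 0.12, 95% interval -0.46 to 0.08, adjusted p = 0.847 in limma over all features), and -0.13 without WT array 1 or WT array 3.

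Kit was measured at 5.59, 5.46, 5.62, 5.65 and 5.70 on the Rac2-/- arrays, against 5.84, 5.64, 5.99, 5.95 and 5.56 on the WT arrays. WT arrays 1, 3 and 4 were above all Rac2-/- arrays, and WT arrays 2 and 5 were among them. The difference was -0.19 (SE 0.10, 95% interval -0.42 to 0.03, adjusted p = 0.616 in limma), with -0.22 in arrays 1 and 2 and -0.18 in arrays 3 to 5. Gata2 read 5.97, 5.77, 5.99, 6.21 and 6.15 on the Rac2-/- arrays, against 6.24, 6.04, 6.48, 6.45 and 6.21 on the WT arrays. WT array 2 lay within the Rac2-/- range and WT array 5 was level with its top. The means of Gata2 were 6.02 ± 0.17 in Rac2-/- and 6.28 ± 0.18 in WT BMDMs, a difference of -0.27 (SE 0.11, 95% interval -0.52 to -0.01, adjusted p = 0.446 in limma) that was -0.27 and -0.26 within the array sets.

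How far these values stood above the array's background was read from 1208 features of olfactory and vomeronasal receptors, which belong to sensory neurons. The values of these features on single arrays had a median of 3.90, and their mean levels over the 10 arrays had a 95th percentile of 5.68. Prss34 was above 99.1% of them, Gata2 above 98.4%, Kit above 95.1%, Tpsb2 above 93.4% and Mcpt8 above 92.7%. Cpa3 exceeded 75.2%, Cma1 73.5%, Fcer1a 52.6% and Ms4a2 48.7%, so the alpha and beta chains of the IgE receptor were at the level of these receptor genes. These ranks use means over all 10 arrays, of both genotypes. In Rac2-/- BMDMs alone, Prss34 averaged 5.89, Kit 5.60, Mcpt8 5.08 and Cpa3 4.14, so only Prss34 of these lay above 5.68. In WT BMDMs they averaged 7.08, 5.80, 5.92 and 5.12, in the same order. Features differ in how brightly they bind, and a level inside this range does not show that a gene is off.

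The spread between arrays parted the genes more clearly than the level. The highest minus the lowest array was 2.46 for Prss34, 2.17 for Cpa3 and 2.04 for Mcpt8, and the sensory receptor features had a median of 0.48 and a 99th percentile of 1.32. For each of the 3 proteases, 99.8% of these features spread less. Gata2 spread more than 83.3% of them, Ms4a2 68.0%, Kit 58.7%, Fcer1a 54.6%, Cma1 22.0% and Tpsb2 2.90%. Prss34, Mcpt8 and Cpa3 thus spread more than nearly all of these features, and Cma1 and Tpsb2, the proteases of connective tissue mast cells, stayed within their usual spread. These ranges run over both genotypes and so include the difference between them. Within genotypes, the SDs of Prss34, Mcpt8 and Cpa3 were 0.24 to 0.32 in Rac2-/- and 0.69 to 0.78 in WT BMDMs.

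**Figure D3:**
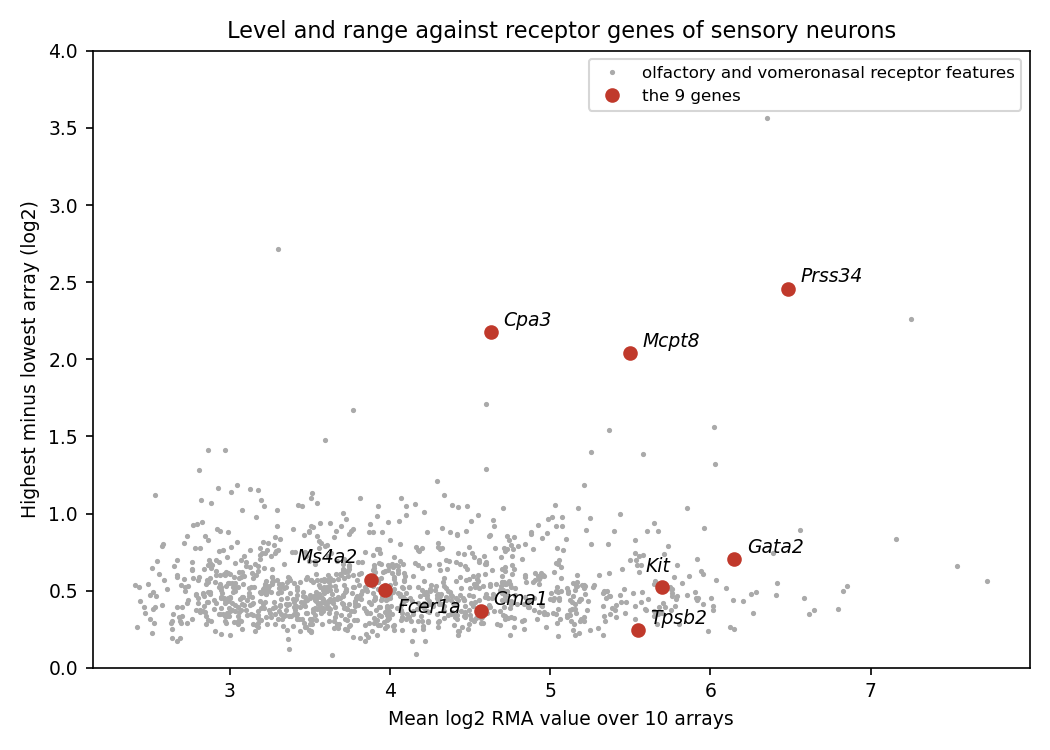
Mean log2 RMA value over 10 arrays (x axis) against the highest minus the lowest array (y axis) for the 9 genes (red) and 1208 olfactory and vomeronasal receptor features (grey). Prss34, Mcpt8 and Cpa3 lie above 2 on the y axis, and the other 6 genes lie among the grey points.

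Other genes of mast cells and basophils were taken from 6 lists, 66 of whose 72 genes were measured and 54 tested. Their median difference was -0.0049. The test was passed by 5, Cebpa and Alox5 higher and Hdc, Itgb7 and Cd69 lower in Rac2-/- BMDMs, beside 1.89% of all tested features, and 6 passed with the replicate number as a block, beside 6.27%.

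Of the other granule proteases, 7 of 8 were measured, 4 were tested and 0 passed. Gzmb, granzyme B, averaged 4.703 ± 0.115 in Rac2-/- and 5.23 ± 0.34 in WT BMDMs (difference -0.52, adjusted p = 0.156), and Tpsg1, a tryptase of mast cells, 5.53 ± 0.18 in Rac2-/- and 5.70 ± 0.19 in WT BMDMs (difference -0.17, adjusted p = 0.825). Mcpt1, Mcpt2 and Mcpt4, proteases of mast cells, were below the filter. In the signalling chain of the IgE receptor, 12 of 14 genes were measured and tested and 0 passed, with a median difference of 0.10. Fcer1g, the gamma chain that macrophages share, averaged 12.81 ± 0.05 in Rac2-/- and 12.81 ± 0.05 in WT BMDMs. The smallest adjusted p-values in it were those of Syk, the kinase recruited by the gamma chain (difference 0.21, adjusted p = 0.404), and Plcg1, a phospholipase C (difference 0.24, adjusted p = 0.703).

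Among 14 tested genes for the ligand of Kit and transcription factors of the lineage, 1 passed. Cebpa, a factor of granulocytes and macrophages that is known to restrain the mast cell fate in mouse progenitors, averaged 8.79 ± 0.25 in Rac2-/- and 8.14 ± 0.08 in WT BMDMs (difference 0.65, adjusted p = 0.0217). The groups did not overlap, but the call was lost in 7 of 10 fits that left out an array.

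Of 10 tested genes for mediators, 2 passed, in opposite directions. Hdc, which makes histamine, read 6.99, 7.07, 6.96, 7.08 and 6.86 on the Rac2-/- arrays, against 7.63, 7.42, 7.49, 7.56 and 7.29 on the WT arrays. All WT arrays lay above all Rac2-/- arrays, and WT array 5 was again the lowest of its genotype. The difference was -0.49 (SE 0.09, adjusted p = 0.0185). The call held in 7 of 10 fits that left out an array, and the highest adjusted p of the 10 was 0.0618, without WT array 4. Alox5, the 5-lipoxygenase of leukotriene synthesis, which macrophages express too, averaged 9.08 ± 0.49 in Rac2-/- and 7.20 ± 0.47 in WT BMDMs (difference 1.87, SE 0.28, adjusted p = 0.00784) and passed without any 1 of the arrays.

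Of 15 measured surface receptors of mast cells and basophils, 10 were tested and 2 were lower in Rac2-/- BMDMs. Itgb7, the beta 7 integrin, averaged 7.41 ± 0.33 in Rac2-/- and 8.66 ± 0.41 in WT BMDMs (difference -1.26, adjusted p = 0.0172), a call lost in 2 of 10 fits without an array. Cd69, an early activation marker of many leukocytes, averaged 7.26 ± 0.74 in Rac2-/- and 9.02 ± 0.42 in WT BMDMs (difference -1.75, adjusted p = 0.0296) and held in 3 of 10. With the replicate block Cd200r4, a receptor of the CD200 family, also passed (8.16 in Rac2-/- and 8.93 in WT BMDMs, adjusted p = 0.0279 with the block and 0.136 without). Of 8 measured cytokines 4 were tested and 0 passed. The nearest were Tnf (9.21 in Rac2-/- and 9.89 in WT BMDMs, adjusted p = 0.346) and Ccl1, a chemokine (5.67 in Rac2-/- and 5.73 in WT BMDMs, adjusted p = 0.987).

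Markers of other blood cells were read on the same arrays. The 12 neutrophil markers, among them Elane, Mpo, Ltf and S100a8, had a mean of 6.42, 7.84, 8.06, 7.93 and 7.45 on Rac2-/- arrays 1 to 5, against 8.30, 6.69, 8.60, 8.56 and 6.63 on WT arrays 1 to 5. WT arrays 1, 3 and 4 were thus the highest and WT arrays 2 and 5 and Rac2-/- array 1 the lowest. For Mcpt8, Kit and Gata2, too, WT arrays 1, 3 and 4 were the highest 3. This did not hold for the rest of the 9 genes. Prss34 was highest on WT arrays 1, 4 and 2, and Cpa3 on WT arrays 3, 4 and 5. None of the 12 neutrophil markers passed, 9 had a lower mean in Rac2-/- BMDMs, the median difference was -0.27, and the log2 of their summed level was 10.35 to 12.46 in Rac2-/- and 10.74 to 13.04 in WT BMDMs. Single markers read between 4.47 (Retnlg) and 11.7 (Ngp), both on WT arrays. Their part in the differences of the proteases, Kit and Gata2 was not tested.

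**Figure D4:**
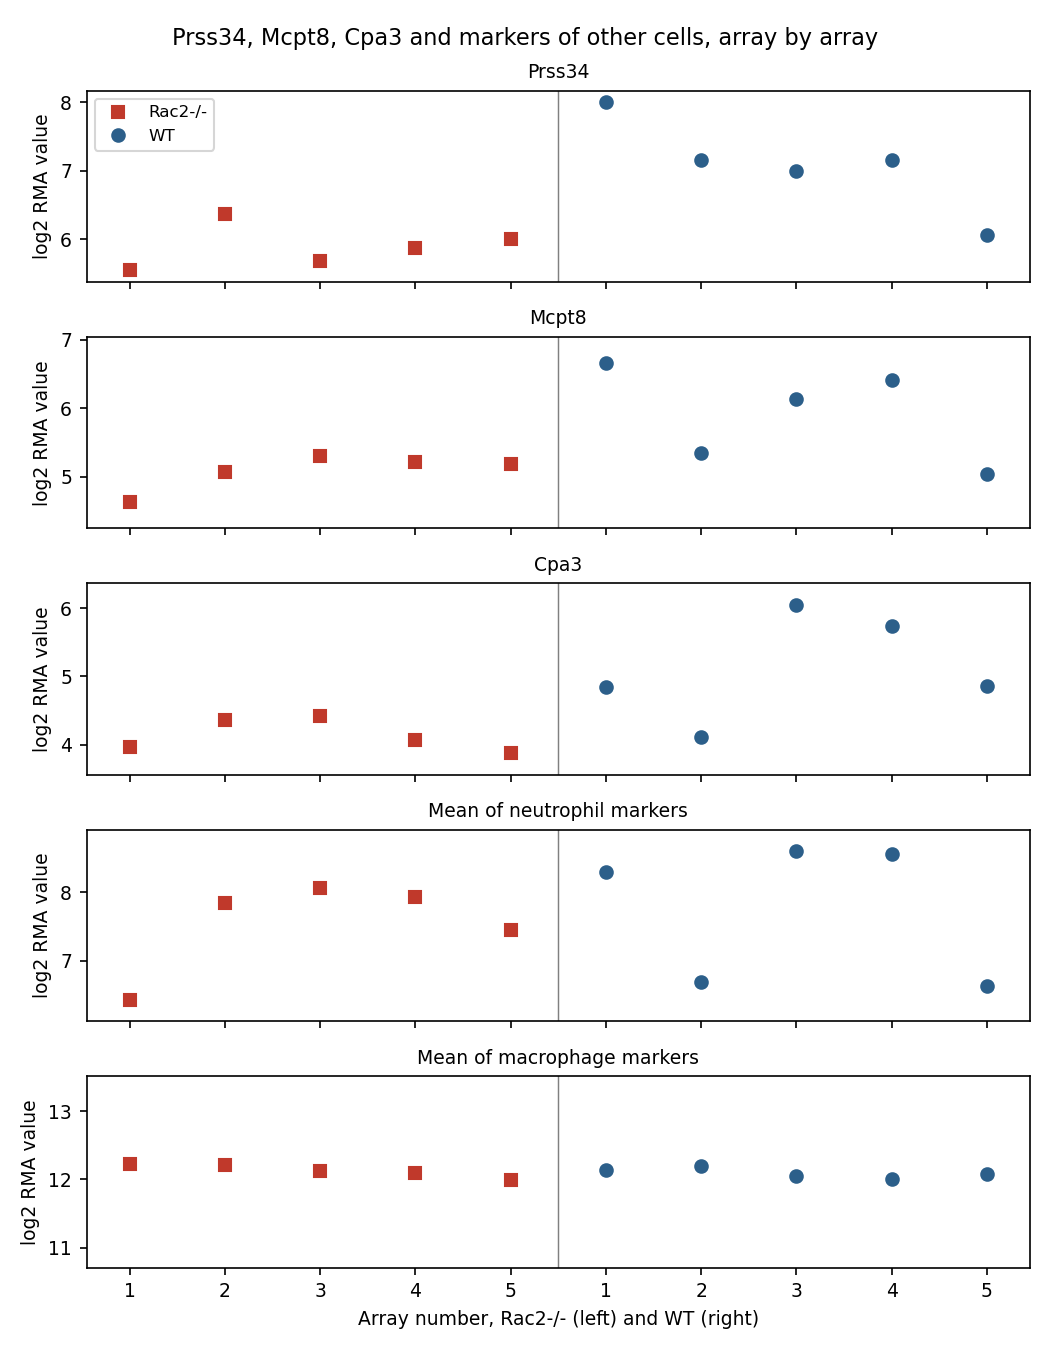
Log2 RMA values by array number, Rac2-/- on the left and WT on the right, for Prss34, Mcpt8, Cpa3, the mean of 12 neutrophil markers and the mean of 11 macrophage markers. The neutrophil mean spans 6.42 to 8.60, with WT arrays 1, 3 and 4 highest, and the macrophage mean 11.99 to 12.22.

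Of 85 measured markers of 10 kinds of cells or states, 78 were tested and 4 passed, beside 1.89% of all tested features, with 12 passing under the replicate block, beside 6.27%. Mrc1 of macrophages (11.57 in Rac2-/- and 10.91 in WT BMDMs, adjusted p = 0.00353), Pf4 of megakaryocytes and some macrophages (10.88 in Rac2-/- and 9.49 in WT BMDMs, adjusted p = 0.00465) and Itgax of dendritic cells and macrophages (7.94 in Rac2-/- and 5.99 in WT BMDMs, adjusted p = 0.00427) were higher in Rac2-/- BMDMs. Ccr7, of migrating dendritic cells and lymphocytes, was lower (6.66 in Rac2-/- and 7.58 in WT BMDMs, adjusted p = 0.0141). The 8 that passed with the block alone were Itgam, Cd79b, Xcr1 and Pdgfrb, higher in Rac2-/- BMDMs, and Fcgr1, Siglech, Dcn and Sparc, lower in them. Dcn, decorin of fibroblasts, averaged 6.19 ± 0.67 in Rac2-/- and 7.40 ± 0.52 in WT BMDMs (difference -1.21, adjusted p = 0.138, and 0.0175 with the block). Of 10 fibroblast and stroma markers 8 had a lower mean in Rac2-/- BMDMs, with a median difference of -0.19 and a log2 summed level of 10.25 to 10.95 in Rac2-/- and 10.69 to 11.18 in WT BMDMs. Their part in the differences of the 9 genes was not tested. Markers of S phase and mitosis set Rac2-/- array 5 apart, with a mean of 10.2 on it and 7.87 to 8.26 on the other Rac2-/- arrays, against 7.45 to 8.20 on the WT arrays. Alox5 (9.885) and Itgax (8.96) were highest on that array too, and without it their differences were 1.67 and 1.69. No marker of eosinophils or of blood progenitors passed. Eosinophils share Ccr3 with basophils, which averaged 5.85 ± 0.39 in Rac2-/- and 6.60 ± 0.43 in WT BMDMs (difference -0.75, adjusted p = 0.201). Unlike Prss34 and Mcpt8, Ccr3 was highest on WT array 5 (7.23). Of the 7 measured eosinophil markers, 4 had a lower mean in Rac2-/- BMDMs, Ccr3 among them, and the median difference was -0.052. The progenitor marker with the smallest adjusted p was Flt3, a receptor of early progenitors (difference -0.29, adjusted p = 0.350). Of the 8 measured progenitor markers, only 3 had a lower mean in Rac2-/- BMDMs, Flt3 among them, and the median difference was 0.036. The progenitor marker Cd34 read 7.05 on Rac2-/- array 5, the array set apart by mitosis markers. It read 5.32 to 5.60 on the other Rac2-/- arrays and 5.38 to 5.945 on the WT arrays.

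Among 16963 other genes, those whose values ran most like each gene over the 10 arrays, after the mean of each array set was subtracted, are given by Pearson's r as a description, since all values share the same arrays. Without this subtraction r was lower for some of them, as for Dele1 (0.29), Aig1 (0.56), Scin (0.47), E130309D02Rik (0.55) and Smim7 (0.38). For Prss34 they were Aig1, Mmp9 and Dele1 (0.96 each), for Mcpt8 Plpp3 (0.97), Tst (0.96) and Sowahc (0.96), and for Cpa3 Cd7 (0.97), Ccr9 (0.95) and E130309D02Rik (0.95). Kit ran most like Myb (0.98), a factor of blood progenitors and 1 of the progenitor markers, then Scin and Adgrg3 (0.95 each). Gata2 ran most like Siglech (0.97), 1 of the dendritic cell markers, then Tcaf1 (0.95) and Gjd3 (0.94), and Tpsb2 most like Pcdh8 (0.95), Smim7 (0.94) and Kbtbd13 (0.93). No genotype mean was subtracted, so the differences between the genotypes enter every r given here. Among the 36 pairs of the 9 genes r had a median of 0.70, with the highest for Prss34 and Mcpt8 (0.94) and for Kit and Gata2 (0.91) and the lowest for Prss34 and Tpsb2 (-0.61). Mcpt8 had the highest r with the neutrophil mean (0.78), followed by Ms4a2 (0.69), Kit (0.63), Prss34 (0.62), Cpa3 (0.58), Fcer1a (0.49), Gata2 (0.39), Tpsb2 (-0.03) and Cma1 (-0.21).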

How the data were processed

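Each of the 10 arrays was used, and groups and numbers came from the labels. The deposited log2 values were made by the authors with RMA from Affymetrix mouse whole-transcript arrays. The log base is not written with them and was taken as that of RMA (range 1.69 to 13.7, array medians 6.07 to 6.14). No source used here gives software versions. The methods name ComBat, but no source names its batches or says whether it entered these values. Of 34760 features, 21640 had a single symbol, 1321 several and 11799 none listed, and symbols were updated by Entrez identifier for 21553 and by accession for 3.

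Differences were tested in R 4.3.3 with limma 3.58.1 (lmFit, eBayes), checked on simulated data first. Features with a fourth-highest value of at least 4.7 entered, a level set here because the level the methods used is not stated. The 9 genes and all lists were chosen with earlier results of these data known. Named are these 9, Rac2, up to 5 genes past the threshold in each list of the lineage (otherwise the 2 with the smallest adjusted p), up to 3 markers past it per cell type and the 3 genes most like each of the 9 that passed the filter. Fcer1g, Cd200r4, Ccr3, Flt3, Cd34, the markers that passed with the block alone, Tpsab1, Mcpt1, Mcpt2, Mcpt4 and the neutrophil markers were named outside this rule, after their values were seen. After subtraction of group means, Rac2-/- and WT arrays of the same number correlated at 0.492 to 0.713, which was taken as pairing. This comes from the values alone, and other numbers of the same array set correlated as much (0.475 to 0.723).

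Alternatives were no filter or one at 6, the replicate block, a term for arrays 1 and 2 against 3 to 5, ComBat (its parametric form, written out in R) on the same split, fits within each array set, quantile normalization, median centring, array weights, a variance model with trend and robust fitting, the mean of a gene's features and leaving out each array. The number of arrays limits the precision.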

Additional observations from a re-analysis of the deposited data

Results flagged for a closer look

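Fcer1a in WT array 5 was 3.74, far from the 4.20 to 4.25 of the other WT arrays. Its gap to the nearest of them was 0.91 of the group's whole range. Of 20 groups of 5 arrays looked at, this was the only 1 to stand out so far, and chance marks about 1 in 20. The Rac2-/- arrays read 3.79 to 3.87.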

How the results depend on the processing

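The number of the 9 genes past the threshold was 0 in the main test, 0 with the replicate block, 1 with a term for the array sets (Prss34), 3 with ComBat (Prss34, Cpa3 and Gata2), 1 within arrays 3 to 5 (Cpa3), 2 with array weights (Prss34 and Cpa3), and 0 to 1 when an array was left out, the 1 being Prss34 without WT array 5. Over all tested features, ComBat called 16.1%, array weights 6.61% and arrays 3 to 5 alone 5.42%. Fcer1a, not tested with the filter, passed over all features with ComBat (adjusted p = 0.037) and without WT array 5 (adjusted p = 0.0406). Within arrays 1 and 2, and under the other settings, 0 of the 9 passed. A filter at 6 left only Prss34 and Gata2 to test. Cma1 changed sign within arrays 3 to 5 (0.033) and with array weights (0.021). The median difference of the 9 genes stayed between -0.30 and -0.20 under every alternative. Of the genes in the 6 lists, 5 passed in the main test, 10 with the term for the array sets, 18 with ComBat, 0 within arrays 1 and 2, 10 with array weights and 2 to 6 without 1 array. These alternatives for the lists were chosen after seeing the data. Without Rac2-/- array 3 or 4 or WT array 3 or 4, 2 passed, and 3 without Rac2-/- array 2, WT array 2 or WT array 5. Apart from Cd200r4, the block changed no call of the 9 genes or of those named from the 6 lists. Levels near those of sensory receptor genes limit what Fcer1a, Ms4a2, Cma1 and Cpa3 can show, and the calls of Cpa3 rest on a filter it passed through WT arrays alone. Mcpt8 and Tpsb2, too, averaged below the 95th percentile of the sensory receptor features over the 10 arrays.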
